A study of Mus musculus with 8 samples.

Results

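The genes described here are 10 members of the Bcl2 family, which sets whether a cell commits to apoptosis through its mitochondria, measured by RNA-Seq in control and Snf5 CKO germ cells of the mouse fetus. They were chosen by name, as 4 pro-survival members (Bcl2, Bcl2l1, Bcl2l2 and Mcl1), 2 effectors (Bax and Bak1) and 4 BH3-only members (Bcl2l11, Bid, Bbc3 and Pmaip1). The effectors and the BH3-only members together are called pro-death below. All 10 of 10 were listed in the female table, among 23694 named genes, and all 10 in the male table, among 23409.

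The study asked what the SWI/SNF chromatin remodeling complex does in the fetal germline by deleting Snf5 (Smarcb1), which encodes one of its core subunits, in primordial germ cells. Germ cells were sorted from E15.5 ovaries and testes by an Oct4-EGFP transgene that the embryos of every group carried, and each sex gave 2 control and 2 Snf5 CKO libraries, 8 in all. Snf5 CKO embryos were Snf5 fx/Δ with TNAP-Cre, that is, Cre knocked into Alpl, which encodes tissue nonspecific alkaline phosphatase. Controls pooled the germ cells of Snf5 fx/+ embryos, Snf5 fx/Δ embryos and Snf5 fx/+ embryos with TNAP-Cre, so some control cells carried a heterozygous deletion or Cre. The labels give a C57BL/6 background for all samples, whereas the study's methods describe a mixed one, and most libraries pooled several embryos, while male Snf5 CKO replicate 2 came from a single one. Recombination by TNAP-Cre is incomplete, and some germ cells of Snf5 CKO embryos keep SNF5, so a Snf5 CKO library holds both kinds of cell. The libraries are bulk RNA, in which fewer cells of a kind and less RNA per cell cannot be told apart.

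In healthy cells the pro-survival proteins hold the effectors BAX and BAK in check. BH3-only proteins, induced or activated by stress, DNA damage or loss of survival signals, occupy the pro-survival proteins or engage the effectors directly, after which BAX and BAK open the outer mitochondrial membrane, cytochrome c leaves the mitochondria, and the apoptosome activates caspases. In the fetal gonad the same balance is known to govern how many germ cells survive, with loss of Bax sparing germ cells and Bcl2l1 and Mcl1 needed to keep them alive.

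Values are FPKM, fragments per kilobase of transcript and per number of mapped fragments. The tables hold no counts, so the absolute depth is unknown, and error was measured only by the spread between libraries. Each sex was fitted alone with limma on log2(FPKM + 1), because the female and male tables were normalized separately. A gene was tested when its mean over the 4 libraries of its table reached 1 FPKM, and it was said to rise or fall when its Benjamini-Hochberg adjusted p, taken over all genes tested, was under 0.05. No p from exact permutation of 2 libraries against 2 is given for single genes, since its two-sided value cannot be smaller than 0.333. Smarcb1 was at 23.4 and 22.3 FPKM in the female controls against 4.24 and 2.47 in female Snf5 CKO, and at 141 and 167 FPKM in the male controls against 8.73 and 10.1 in male Snf5 CKO (limma log2 fold change -2.48 and -3.90, adjusted p = 0.00027 and 0.0021), as the labels say. Markers of germ cells were abundant in every library, and their summed level over 7 genes was lower in Snf5 CKO, at 1702 to 1739 FPKM against 4296 to 4498 in female controls and at 2076 to 2204 against 3434 to 3575 in male controls. Of these 7 markers, 2 rose and 3 fell in females, and 0 rose and 5 fell in males.

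Bax and Bbc3 rose in Snf5 CKO germ cells of both sexes, Bcl2l1 fell and Mcl1 rose in male germ cells, and Bcl2, Bak1 and, in females, Bcl2l2 were under 1 FPKM on average and were not tested. In females 7 members were tested, of which 2 rose and 0 fell. Of all 11529 female genes tested, 26.9% rose and 34.6% fell, 61.6% in either direction, against 28.6% of the tested members. In males 8 members were tested, of which 4 rose (Bax, Bbc3, Mcl1 and Bcl2l11) and 1 fell (Bcl2l1). Of all 12279 male genes tested, 21.0% rose and 25.3% fell, 46.3% in either direction, against 62.5% of the tested members. Among these 8 rows the one of Bcl2l2 is not a single gene, because the male table merges Bcl2l2 with Pabpn1. With the replicate number as a block the female count became 2 higher and 1 lower, and the male count 5 higher and 1 lower, where the block called 76.7% of all female and 76.3% of all male genes. The 2 groups did not overlap, with Snf5 CKO on top, for 3 of the 7 female and 5 of the 8 male members tested, against 36.4% and 34.5% of all genes tested, and with Snf5 CKO at the bottom for 2 and 2, against 45.1% and 40.0%.

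**Figure D1:**
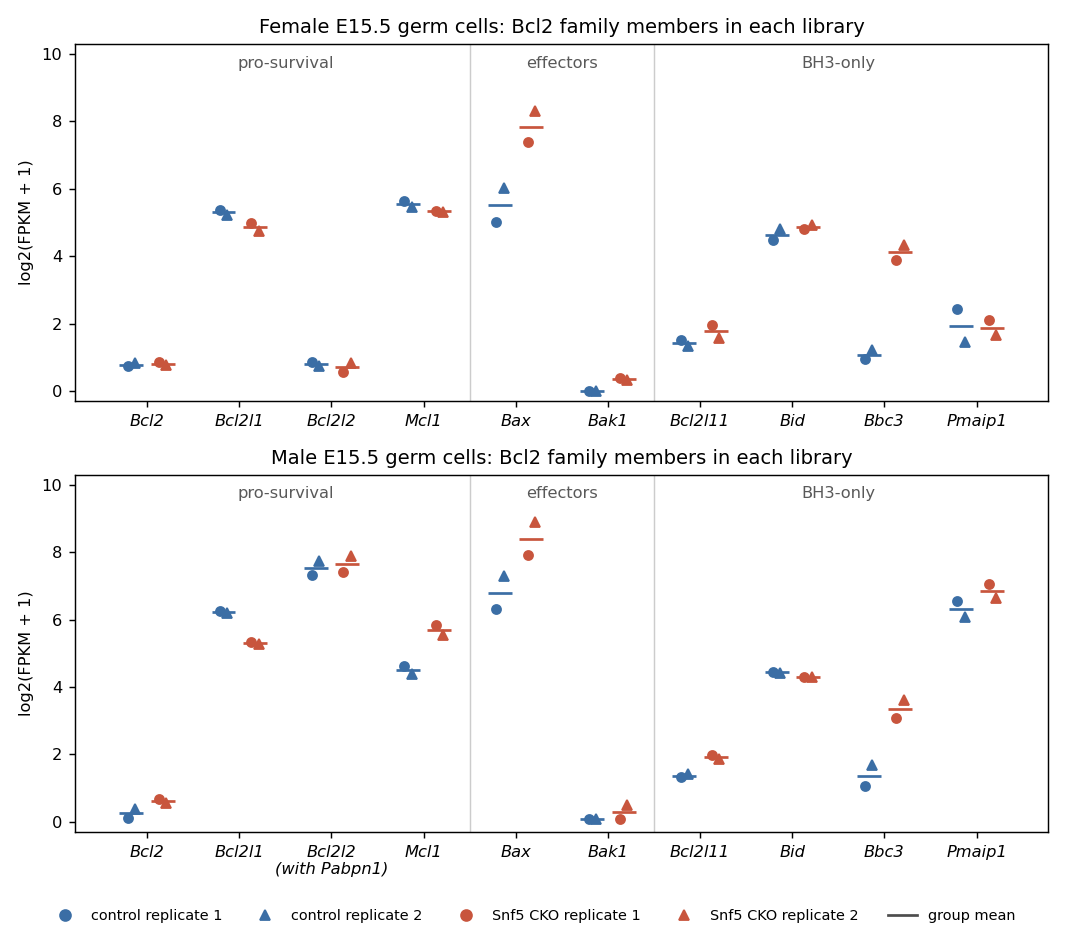
Level of each member in each library, as log2(FPKM + 1), with female germ cells above and male germ cells below; circles are replicate 1, triangles replicate 2, blue control, red Snf5 CKO, and bars the group mean. Bax and Bbc3 lie higher in both Snf5 CKO libraries than in both controls in each sex, from 165.7 FPKM up against 64.7 or less for Bax in females, while Mcl1 lies higher in Snf5 CKO in males, at 45.4 and 55.8 FPKM against 20.1 and 23.9.

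Without the filter on low values, the median log2 fold change of the 6 pro-death members was 0.34 in females and 0.55 in males. That of the 4 pro-survival members was -0.16 and 0.24, and that of all genes was -0.03 and -0.05. These medians over 4 and 6 genes are descriptions and have no test. The male pro-survival median lies between the merged Bcl2l2 and Pabpn1 row (0.12) and Bcl2 (0.37), which was under 1 FPKM. In females the pro-survival median lies between Bcl2l2 (-0.10) and Mcl1 (-0.22), and the pro-death one between Bcl2l11 (0.33) and Bak1 (0.35). Bcl2l2 and Bak1 were under 1 FPKM there.

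The 250 bases upstream of the RefSeq start are given below for Bax and Bbc3, which rose in both sexes, and for Mcl1 and Bcl2l1, which changed in opposite directions in males. The stretches are from GRCm38.p6, on the strand of the gene, with capitals marking the E-box CACGTG and the GC box GGGCGG or its reverse complement CCGCCC.
Bax, chr7:45466899-45467148, minus strand: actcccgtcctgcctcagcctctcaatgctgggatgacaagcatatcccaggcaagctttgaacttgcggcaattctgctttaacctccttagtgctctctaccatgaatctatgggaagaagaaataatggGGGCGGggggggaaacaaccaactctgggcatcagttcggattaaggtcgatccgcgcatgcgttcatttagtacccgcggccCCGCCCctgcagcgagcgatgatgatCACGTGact
Bbc3, most upstream start, chr7:16309333-16309582, plus strand: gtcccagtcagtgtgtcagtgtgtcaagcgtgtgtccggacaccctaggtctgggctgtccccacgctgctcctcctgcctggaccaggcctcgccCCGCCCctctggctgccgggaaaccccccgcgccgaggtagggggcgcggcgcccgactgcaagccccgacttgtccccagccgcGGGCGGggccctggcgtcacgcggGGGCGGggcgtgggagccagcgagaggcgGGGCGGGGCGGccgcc
Mcl1, chr3:95658471-95658720, plus strand: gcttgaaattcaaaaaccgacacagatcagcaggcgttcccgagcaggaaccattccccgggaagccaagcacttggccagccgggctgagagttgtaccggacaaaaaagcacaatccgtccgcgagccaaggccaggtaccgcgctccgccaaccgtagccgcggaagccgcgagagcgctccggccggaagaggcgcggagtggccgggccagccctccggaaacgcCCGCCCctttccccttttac
Bcl2l1, most upstream start, chr2:152831729-152831978, minus strand: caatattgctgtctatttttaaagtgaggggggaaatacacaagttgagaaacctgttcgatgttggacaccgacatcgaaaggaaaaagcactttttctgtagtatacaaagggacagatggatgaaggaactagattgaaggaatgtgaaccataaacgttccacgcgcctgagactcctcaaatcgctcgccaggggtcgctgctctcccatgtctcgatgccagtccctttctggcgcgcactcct

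The stretch shown before Bbc3 was 76.4% G and C and held 5 GC boxes, counted on both strands and with overlaps. Stretches before its further starts, not shown, held 1 GC box and no E-box (chr7:16310011-16310260) and 7 GC boxes and 1 E-box (chr7:16310181-16310430). Bax had 1 E-box, 2 GC boxes and 54.0% G and C, Mcl1 had 1 GC box and 64.4% G and C, and Bcl2l1 had neither motif and 47.6% G and C. Of all 32851 promoter stretches of this length in the RefSeq table, 6.02% hold the E-box and 32.7% the GC box, and their median G and C content was 52.4%. An exact match to the p53 consensus decamer, which 7.13% of all stretches hold, was found once before Bax and not in the other 3 stretches shown. Sites that depart from the consensus at any base were not searched for, so a stretch without a match may still hold a p53 site. Such matches are a description of the letters in these windows and not evidence of binding. The table had entries for 9 of the 10 members and none for Pmaip1.

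Of the effectors, Bax (chromosome 7 from 45461697 to 45466898, minus strand) was the member with the highest FPKM in both Snf5 CKO groups. In female germ cells it was at 31.5 and 64.7 FPKM in control replicates 1 and 2 and at 166 and 317 FPKM in Snf5 CKO replicates 1 and 2. Both Snf5 CKO libraries were above both controls, and in each group replicate 2 was about as far above replicate 1. The ratio of Snf5 CKO to control was 5.27 in replicate 1 and 4.91 in replicate 2, and the log2 fold change was 2.32 (standard error 0.41, limma adjusted p = 0.0029).

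In male germ cells Bax was at 78.5 and 155 FPKM in control and at 239 and 478 FPKM in Snf5 CKO. The groups did not overlap here either, and the same difference between the replicate numbers was seen. The ratio was 3.04 in replicate 1 and 3.08 in replicate 2, and the log2 fold change was 1.61 (standard error 0.48, limma adjusted p = 0.044). This call rested on the fit: the adjusted p was 0.145 without control replicate 1, where the log2 fold change was 1.12, and 0.058 without Snf5 CKO replicate 2, where it was 1.11. It was 0.070 with no filter and 0.051 with a filter at 5 FPKM. With the replicate number as a block it was 3.5e-05. The locus overlaps Gm45808, a gene annotated on the same strand whose span also takes in the promoter stretch above.

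Bak1 (chromosome 17 from 27019810 to 27029009, minus strand), which encodes the other effector, was low in every library. It was listed at 0 in both female controls and at 0.30 and 0.245 FPKM in female Snf5 CKO, and was at 0.0699 and 0.0612 FPKM in the male controls and at 0.0582 and 0.412 FPKM in male Snf5 CKO. The female groups did not overlap and the male groups did, and neither row reached the filter. The locus lies within Ggnbp1 on the opposite strand, and without strand information reads from the overlapping genes cannot be told apart.

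Among the BH3-only members, Bbc3 (PUMA, a p53 target that binds every pro-survival member; chromosome 7 from 16308393 to 16318205, plus strand) had the largest log2 fold change of the members tested in each sex. In female germ cells it was at 0.931 and 1.32 FPKM in control and at 13.9 and 19.4 FPKM in Snf5 CKO. Both Snf5 CKO libraries were far above both controls, by a ratio of 15.0 in replicate 1 and 14.6 in replicate 2. The log2 fold change was 3.04 (standard error 0.23, limma adjusted p = 0.00014), and it stayed between 2.82 and 3.26 with each library left out.

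In male germ cells Bbc3 was at 1.08 and 2.198 FPKM in control and at 7.498 and 11.3 FPKM in Snf5 CKO. The groups did not overlap, with ratios of 6.96 and 5.16 in the replicates, and the log2 fold change was 1.99 (standard error 0.31, limma adjusted p = 0.0075). The female row spans Bbc3 and the neighbouring Ccdc9 on the opposite strand, which has a row of its own over the same span, at 19.4 and 16.2 FPKM in control and 28.8 and 30.0 in Snf5 CKO. The male Bbc3 row does not reach Ccdc9.

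The tested genes whose pattern over the 4 female libraries was closest to that of Bbc3, by Euclidean distance of the centred log2(FPKM + 1), were Fgf17 (0.058), Qtrt1 (0.062) and 1700019A02Rik (0.10). In males they were Gfer (0.061), Gadd45b (0.093) and Ier5l (0.16).

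Bcl2l11 (BIM, a BH3-only protein induced on loss of survival signals; chromosome 2 from 128126038 to 128162547, plus strand) was at a low level throughout. It was at 1.89 and 1.54 FPKM in female control and at 2.92 and 1.96 FPKM in female Snf5 CKO, and at 1.49 and 1.66 FPKM in male control and 2.95 and 2.66 FPKM in male Snf5 CKO. In both sexes the Snf5 CKO libraries were above the controls, in females by little. The female difference did not pass (log2 fold change 0.33, standard error 0.22, limma adjusted p = 0.22) and the male one did by a narrow margin (0.56, standard error 0.17, adjusted p = 0.049). The male call was lost with a pseudocount of 0.1 (adjusted p = 0.060), with no filter (0.076), with a common sum of FPKM per library (0.35) and with any 1 of the 4 libraries left out (0.12 to 0.19).

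Bid, whose product links the death receptors to the mitochondria after cleavage by caspase 8, passed in neither sex. It was at 21.2 and 26.9 FPKM in female control and 26.9 and 29.7 FPKM in female Snf5 CKO, and at 20.8 and 20.5 FPKM in male control and 18.7 and 18.8 FPKM in male Snf5 CKO. The female libraries overlapped, and the male Snf5 CKO libraries were slightly below the controls. The test gave no call (limma log2 fold change 0.23 in females, adjusted p = 0.32, and -0.13 in males, adjusted p = 0.53).

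Pmaip1 (NOXA, a p53 target that binds MCL1 above all) stood at different levels in the tables. In female germ cells it was at 4.43 and 1.73 FPKM in control and at 3.29 and 2.16 FPKM in Snf5 CKO. In male germ cells it was at 92.2 and 65.9 FPKM in control and at 132 and 97.9 FPKM in Snf5 CKO. The 4 male libraries were all above the 4 female ones, but the tables were normalized separately and levels were not tested between them. Within females the groups overlapped (log2 fold change -0.06, standard error 0.35, limma adjusted p = 0.89). Within males both Snf5 CKO libraries were above both controls, by a ratio of 1.44 in replicate 1 and 1.49 in replicate 2. That difference did not pass in the fit without a block (log2 fold change 0.54, standard error 0.26, limma adjusted p = 0.15) and passed with the replicate number as a block (adjusted p = 0.00046).

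Of the pro-survival members, Bcl2l1 (BCL-XL; chromosome 2 from 152780668 to 152831728, minus strand) was lower in Snf5 CKO. In male germ cells it was at 76.2 and 72.0 FPKM in control and at 39.4 and 37.7 FPKM in Snf5 CKO. The replicates lay close together and the groups far apart, and Snf5 CKO had 0.517 and 0.524 of the control level in the replicates. The log2 fold change was -0.92 (standard error 0.16, limma adjusted p = 0.0096). The adjusted p was 0.063 without male control replicate 1, with a log2 fold change of -0.88.

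In female germ cells Bcl2l1 was at 40.7 and 36.5 FPKM in control and at 30.6 and 25.9 FPKM in Snf5 CKO. Both Snf5 CKO libraries were below both controls, but the difference was smaller and did not pass without the block (log2 fold change -0.44, standard error 0.18, limma adjusted p = 0.067), while it passed with the replicate block (adjusted p = 0.0063). In both sexes the Bcl2l1 row also spans Cox4i2, a neighbour on the opposite strand. The female row spans Tpx2 as well, another neighbour on the opposite strand. Tpx2 has a female row of its own, at 56.9 and 47.2 FPKM in control and 56.6 and 41.8 in Snf5 CKO.

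Mcl1 (chromosome 3 from 95658788 to 95663176, plus strand), which encodes a short-lived pro-survival protein, rose in males and did not pass in females. In male germ cells it was at 23.9 and 20.1 FPKM in control and at 55.8 and 45.4 FPKM in Snf5 CKO. Both Snf5 CKO libraries were well above both controls, by ratios of 2.34 and 2.26, and the log2 fold change was 1.17 (standard error 0.20, limma adjusted p = 0.0090). With libraries rescaled to a common sum it was 0.99 and the call was lost (adjusted p = 0.085). In female germ cells Mcl1 was at 49.2 and 42.8 FPKM in control and at 39.5 and 39.2 FPKM in Snf5 CKO. Both Snf5 CKO libraries were slightly below the controls, and the log2 fold change was -0.22 (standard error 0.17, limma adjusted p = 0.29). The difference between the sexes was not tested.

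Bcl2, the founding member, was under 1 FPKM in every library and had no test. It was at 0.669 and 0.773 FPKM in female control and 0.822 and 0.704 FPKM in female Snf5 CKO, which overlap, and at 0.0846 and 0.312 FPKM in male control and 0.597 and 0.479 FPKM in male Snf5 CKO, which do not. Bcl2l2 (BCL-W) was at 0.821 and 0.666 FPKM in female control and 0.495 and 0.772 FPKM in female Snf5 CKO, which overlap. The male row that carries its name also carries Pabpn1, a gene for a poly(A)-binding protein, and stood at 159 and 213 FPKM in control and 168 and 235 FPKM in Snf5 CKO. Its log2 fold change of 0.12 (standard error 0.27, limma adjusted p = 0.75) belongs to the merged row, and Bcl2l2 has no male value of its own.

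**Figure D2:**
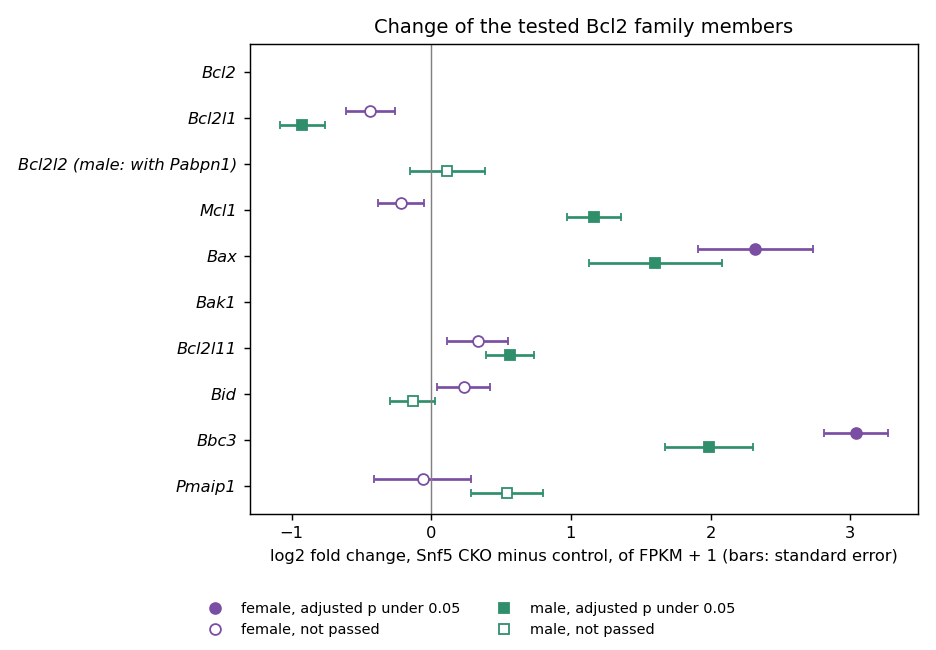
Log2 fold change of FPKM + 1, Snf5 CKO minus control, of each member tested, with bars for the standard error; purple circles are female, green squares male, and filled symbols passed at an adjusted p under 0.05. Bbc3 (3.04 and 1.99) and Bax (2.32 and 1.61) lie farthest to the right in both sexes, Bcl2l1 (-0.44 and -0.92) lies on the left in both, and Mcl1 (-0.22 and 1.17) lies on opposite sides.

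FPKM is scaled by transcript length, so members can also be ordered by level. In female control, Bax (mean 48.1 FPKM) and Mcl1 (46.0) had overlapping ranges, followed by Bcl2l1 (38.6) and Bid (24.1), each apart from the next. Pmaip1 (3.08) overlapped Bcl2l11 (1.71), Bbc3 (1.13) was apart from both its neighbours, and Bcl2l2 (0.743) overlapped Bcl2 (0.721). In female Snf5 CKO, Bax (242 FPKM) stood apart at the top, before Mcl1 (39.3), Bcl2l1 (28.3) and Bid (28.3), of which the last 2 overlapped, and Bbc3 (16.6) had moved above Pmaip1 (2.73). In male control, leaving out the merged row, Bax (117 FPKM) overlapped Pmaip1 (79.0), which overlapped Bcl2l1 (74.1), and Mcl1 (22.0) overlapped Bid (20.7). In male Snf5 CKO the ranges of all neighbours were apart, in the order Bax (359 FPKM), Pmaip1 (115), Mcl1 (50.6), Bcl2l1 (38.6), Bid (18.7), Bbc3 (9.42), Bcl2l11 (2.81), Bcl2 (0.538) and Bak1 (0.235). Mcl1 was thus below Bcl2l1 in male control and above it in male Snf5 CKO.

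Ratios within a library do not depend on how that library was scaled. The ratio of Bax to Bcl2l1 was 0.773 and 1.77 in female control and 5.41 and 12.2 in female Snf5 CKO, and 1.03 and 2.15 in male control and 6.06 and 12.7 in male Snf5 CKO. The groups did not overlap in either sex, and the values of the sexes lay close to each other. The ratio of Bbc3 to Mcl1 was 0.0189 and 0.0310 in female control and 0.353 and 0.494 in female Snf5 CKO, and 0.0451 and 0.110 in male control and 0.134 and 0.2502 in male Snf5 CKO. These groups did not overlap either, by a wide margin in females and a narrow one in males, where Mcl1 rose too.

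The ratio of Bcl2l11 to Mcl1 was higher in Snf5 CKO in females and lower in males, at 0.0383 and 0.0359 in female control against 0.0741 and 0.0501 in Snf5 CKO, and at 0.0624 and 0.0829 in male control against 0.0529 and 0.0587 in Snf5 CKO. The ratio of Bax to Bcl2 was 47.0 and 83.6 in female control against 202 and 451 in female Snf5 CKO, without overlap. In males this ratio overlapped, at 928 and 498 against 400 and 998. Bcl2 was under 1 FPKM in every library, and in the male controls it differed most, at 0.0846 and 0.312 FPKM. The ratio of Mcl1 to Bcl2l1, chosen after its values were seen, was 1.21 and 1.17 in female control and 1.29 and 1.51 in female Snf5 CKO. In males it was 0.313 and 0.278 in control and 1.42 and 1.20 in Snf5 CKO, so that the male Snf5 CKO libraries stood in the range of the female ones.

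The summed FPKM of the 6 pro-death members over that of the 4 pro-survival members was 0.656 and 1.19 in female control and 2.98 and 5.57 in female Snf5 CKO. It was 0.750 and 0.805 in male control and 1.52 and 1.91 in male Snf5 CKO, but the male sum of pro-survival members is mostly the row that Bcl2l2 shares with Pabpn1. Without that row the male ratio was 1.94 and 2.66 in control and 4.18 and 7.29 in Snf5 CKO, and the female ratio 0.662 and 1.20 against 3.002 and 5.64. The groups did not overlap in either version. The sums turn on few genes: Bax made up 52.5% and 67.2% of the pro-death FPKM in female control and 77.8% and 85.6% in female Snf5 CKO, and 40.5% and 63.2% in male control and 59.7% and 78.5% in male Snf5 CKO. With 2 libraries a group no test was made of these ratios.

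**Figure D3:**
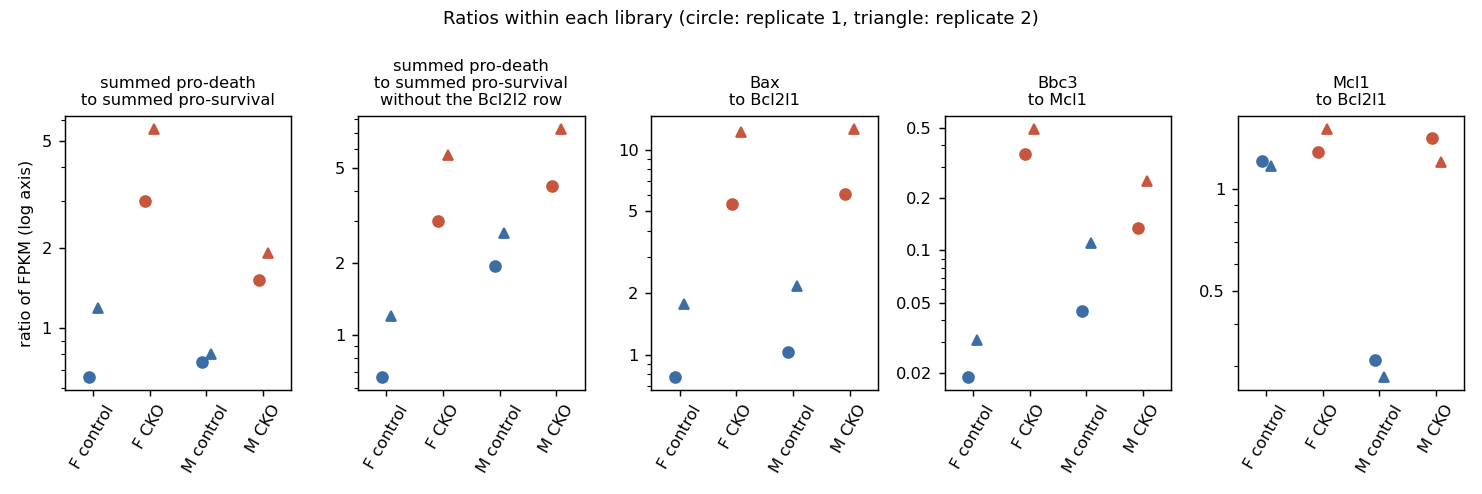
Ratios of FPKM between members within each library, on log axes, for female (F) and male (M) control (blue) and Snf5 CKO (red), with circles for replicate 1 and triangles for replicate 2. In each panel both Snf5 CKO libraries of a sex lie above both of its controls, as for Bax to Bcl2l1 in females (5.41 and 12.2 against 0.773 and 1.77), and Mcl1 to Bcl2l1 separates the male controls (0.313 and 0.278) from the other 6 libraries.

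Markers of supporting cells moved with these changes. The summed FPKM of 12 markers of Sertoli or pre-granulosa cells was 8.28 to 11.9 in female control and 29.0 to 31.4 in female Snf5 CKO, with 8 of 8 tested markers higher and Amh, Cldn11, Dhh and Sox9 under 1 FPKM in every library. In males it was 36.3 to 47.2 in control and 175 to 228 in Snf5 CKO, with 9 of 10 tested markers higher and Foxl2 and Wnt4 under 1 FPKM in every library. The summed FPKM of 10 Leydig and stromal markers was 7.11 to 11.9 against 13.3 to 13.4 in females, with 1 higher and 1 lower of 3 tested, and 65.2 to 99.8 against 16.8 to 21.9 in males, with 5 of 8 tested lower. That of blood and endothelial markers was 24.5 to 99.5 against 28.6 to 84.3 in females and 61.0 to 101 against 60.5 to 65.5 in males. No marker of these lists was at 0 in all libraries of a sex. The part of such cells in the changes of Bax, Bbc3, Bcl2l1 and Mcl1 was not tested.

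Around the members, 51 other genes of the pathway were examined, from a list of further Bcl2 family genes, mitochondrial channels and released factors, the apoptosome and caspases, caspase inhibitors, the death receptor arm and regulators of the members. In females 38 were tested, of which 9 rose, 11 fell and 18 did not pass, and in males 42 were tested, of which 15 rose, 11 fell and 16 did not pass. That is 52.6% and 61.9% of those tested, beside the 61.6% and 46.3% of all genes given above. With the replicate block the female counts became 19 higher and 13 lower, and the male counts 17 and 16. Of the 38 tested in both sexes, Trp53, Vdac1, Bad and Tradd were among those that rose in both, Diablo, Foxo3 and Fbxw7 among those that fell in both, and 3 were called in opposite directions (Htra2, Casp9 and Fadd).

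Of the regulators, Trp53, which encodes the p53 protein that activates transcription of Bax, Bbc3 and Pmaip1, was the gene of the list that rose most. It was at 3.49 and 5.30 FPKM in female control and 92.5 and 126 FPKM in female Snf5 CKO, and at 27.0 and 28.3 FPKM in male control and 176 and 197 FPKM in male Snf5 CKO. The groups were far apart in both sexes (limma log2 fold change 4.36 in females, adjusted p = 9.7e-05, and 2.71 in males, adjusted p = 0.0021). Trp63, a p53 relative that guards oocytes after birth, fell in males from 2.04 and 1.86 FPKM to 0.362 and 0.275 FPKM (log2 fold change -1.16, adjusted p = 0.0053) and was not tested in females, where it was under 0.3 FPKM. Fbxw7, a ubiquitin ligase subunit that targets MCL1, fell in both sexes (-1.83, adjusted p = 0.00053 and -0.89, adjusted p = 0.027), while Usp9x, which removes ubiquitin from MCL1, fell in females (-1.16, adjusted p = 0.0030) and did not pass in males (-0.23, adjusted p = 0.74).

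Downstream of the mitochondria, Casp9, the initiator caspase of the apoptosome, rose in females from 4.19 and 4.20 to 7.19 and 6.85 FPKM (0.63, adjusted p = 0.022) and fell in males from 53.4 and 44.2 to 15.7 and 12.95 FPKM (-1.70, adjusted p = 0.0035). Apaf1, the scaffold of the apoptosome, rose in males from 2.36 and 1.63 to 9.83 and 5.41 FPKM (1.49, adjusted p = 0.017) and did not pass in females without the replicate block (0.49, adjusted p = 0.13; 0.018 with it).

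Cycs, the somatic cytochrome c, passed in neither sex without the block (0.57, adjusted p = 0.10 and -0.55, adjusted p = 0.33) and passed in both with it, in opposite directions (0.0014 and 0.0017). Birc5, a member of the inhibitor of apoptosis family that also acts in cell division, rose in males from 50.3 and 66.3 to 171 and 226 FPKM (1.75, adjusted p = 0.0054) and did not pass in females (0.25, adjusted p = 0.34).

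Among the channels and released factors, Vdac1 rose in both sexes (log2 fold change 2.42 and 2.11), Diablo, whose product relieves caspases from their inhibitors, fell in both (-0.90 and -1.56), and Vdac3 fell in females (-0.98). Htra2, a mitochondrial protease, fell in females from 27.2 and 28.5 to 7.65 and 9.59 FPKM (-1.59) and rose in males from 3.26 and 3.34 to 13.3 and 14.9 FPKM (1.81). Its rows share their span with Loxl3, and in females also with Aup1. Spans are also shared in both sexes by Diablo and B3gnt4, Casp9 and Cela2a, Bad and Gpr137, Vdac2 and Comtd1, and Fbxw7 and Dear1. Of the other BH3-only genes, Bad rose in both sexes (1.31 and 1.5), Bmf rose in females (1.88), and Bik fell in males (-1.26). The death receptor gene Fas fell in males (-1.25) and was listed at 0 in both female controls. Differences between the sexes were not tested.

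**Figure D4:**
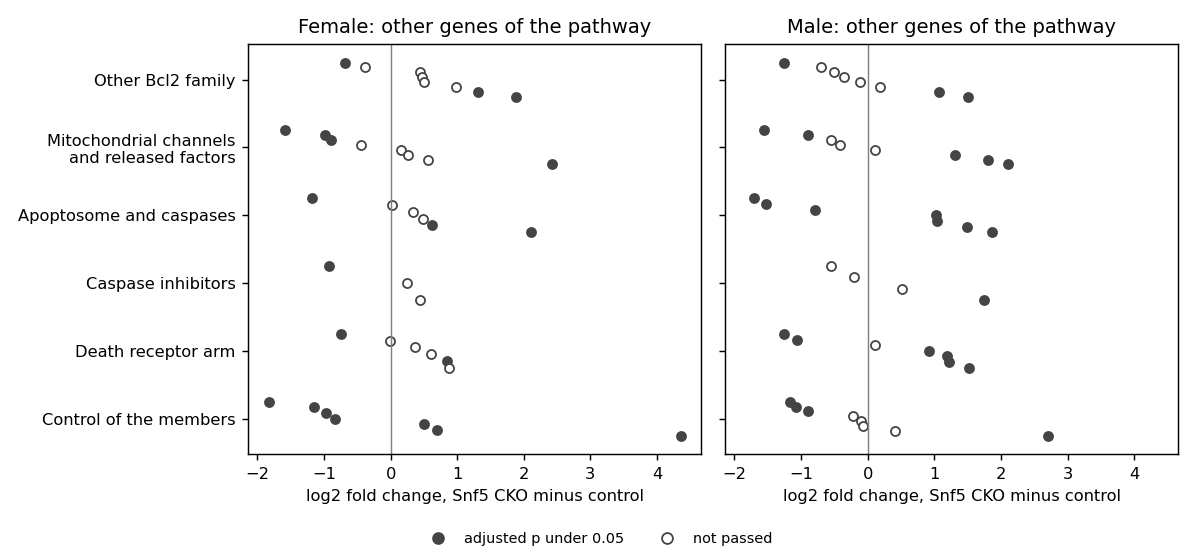
Log2 fold change of FPKM + 1, Snf5 CKO minus control, of the tested genes among the 51 other genes of the pathway, grouped by arm, in females (left, 38 genes) and males (right, 42 genes); filled points passed at an adjusted p under 0.05. Points lie on both sides of 0 in every arm, and the point farthest right in each sex is Trp53 (4.36 and 2.71).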

How the data were processed

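Per the labels, cDNA was amplified from total RNA of sorted germ cells with a SMART-Seq v4 kit, and libraries were made with Nextera XT. This preparation keeps no strand information. The authors mapped paired-end reads to mm10 with Tophat and quantified them with Cufflinks, once per sex, and deposited FPKM values per locus. The submitters' processing notes name TopHat2 2.2.1 and Cuffdiff 2.1.1. The annotation version is not given in the sources used here. The tables hold no counts. Their sums of FPKM ran from 673742 to 1554757 per library, and 16 columns of confidence bounds were not used. Locus starts count from 0 in the tables; gene positions printed here are from GENCODE vM21, and promoter sequences from RefSeq (GRCm38.p6).

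Unnamed loci were left out, and a gene at several loci was represented by the locus of highest mean. Each sex was fitted with limma 3.58.1 in R 4.3.3 on log2(FPKM + 1), with a trend on the mean, for genes whose mean reached 1 FPKM; fold changes on this scale understate those of low genes. The fit was tested on simulated data with independent noise in each library. Those data lack the step between replicates that control and Snf5 CKO share, described below. The members and lists were chosen with earlier results of these data known. Named are all members and, of the pathway list, the 5 called genes with the largest change per sex and direction plus Casp9, Apaf1, Cycs, Trp53, Trp63 and Birc5, as well as genes called in both sexes (a few genes that these rules select are not reported here); for the member with the largest change in a sex, the 3 genes closest in pattern; other genes named were chosen after their values were seen. The study prepared biological duplicates. Male column names call the replicate numbers experiments, and the labels name the raw files of the replicates in unlike styles. The number was therefore treated as a batch mark: over all genes tested, the step from replicate 1 to 2 in control correlated with that in Snf5 CKO at 0.50 (females) and 0.61 (males), and the fit with the number as a block is given beside a stated call that it changed. Alternatives tried were no filter, a filter at 5 FPKM, a pseudocount of 0.1, a common sum, median-of-ratios scaling, no trend, only loci with status OK, summed loci and each library left out. The ratio without the Bcl2l2 row was added after seeing the data. Plots were made in Python 3.11.15 (matplotlib 3.10.9).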

Additional observations from a re-analysis of the deposited data

Results flagged for a closer look

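In 1 of the 7 members and 8 of the 38 other pathway genes tested in both sexes, both Snf5 CKO libraries lay above both controls in one sex and below both in the other. The difference between the sexes was not tested for any of them, since the tables were normalized separately. The member was Mcl1, with a log2 fold change of -0.22 in females and 1.17 in males. Of all genes tested, both Snf5 CKO libraries lay above both controls for 36.4% in females and 34.5% in males. They lay below both for 45.1% and 40.0%. The share of all genes that lay on opposite sides in the sexes was not counted, so the counts here are a description only.

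Of the pathway genes, 3 passed in both sexes: Htra2 (-1.59 in females and 1.81 in males), Casp9 (0.63 and -1.70) and Fadd (-0.74 and 0.92), the adaptor of the death receptors. Bmf passed in females alone (1.88 and -0.36), and Vdac2 (-0.44 and 1.31), a channel that binds BAK, and Tnfrsf10b (0.60 and -1.07), a death receptor, in males alone. Bnip3l (0.44 and -0.51), which acts in the removal of mitochondria, and Xiap (0.45 and -0.20), a caspase inhibitor, passed in neither sex. These calls are from the fit without the replicate block. With it, the Bnip3l rows passed in both sexes (adjusted p = 0.0045 in females and 0.00046 in males). Vdac2 (0.0044) and Tnfrsf10b (0.024) passed in females as well as males, and Xiap (0.046) passed in females but not in males (0.24). The male Bnip3l row, counted among the 8, is merged with Ppp2r2a, so its -0.51 belongs to the merged row and Bnip3l has no male value of its own. The rows of Htra2, Casp9 and Vdac2 share their spans with other genes, as given above.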

How the results depend on the processing

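The 15 tests of members gave 192 values under the alternatives. Of the 132 that kept all libraries, 121 kept direction and call, 2 gained the call and 6 lost it, and of the 60 with a library left out, 49 kept both and 7 lost the call. The calls lost and gained are given beside each gene above. The rest reversed, none of them called: Pmaip1 in females (-0.06) became 0.058 under median-of-ratios scaling and ran from -0.56 to 0.43 with a library left out, the male Bcl2l2 and Pabpn1 row (0.12) became -0.074 with a common sum and ran from -0.13 to 0.36, and Bid in males (-0.13) became 0.020 under median-of-ratios scaling. That scaling moved the median of all genes by 0.15 in each sex, and the common sum by 0.02 in females and -0.19 in males; the cause of the other changes was not tested.

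The replicate block raised the female pathway count from 20 to 32 and changed no call of a member beyond those of female Bcl2l1 and male Pmaip1. The male member count of 5 was 3 with no filter, with a filter at 5 FPKM and with a common sum, and 2 to 4 with a library left out, lowest without control replicate 1. The female count of 2 was 3 with no filter, which admits Bak1, and 3 with the replicate block, and stayed at 2 with a library left out. The male pathway count of 26 was 15 with a filter at 5 FPKM, where fewer genes were tested. With a library left out the pathway counts were 17 to 23 in females and 18 to 24 in males.

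The mean summed pro-death to pro-survival ratio was 4.63 times higher in female and 2.204 times higher in male Snf5 CKO, 3.23 to 6.52 and 1.95 to 2.46 with a library left out, and 2.50 in males without the Bcl2l2 row. The male Bax to Bcl2 ratio, 0.98 of control, ran from 0.56 to 1.40. Absolute depth is unknown, so values under 1 FPKM were given no limit of detection.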
